A study of Mus musculus with 16 samples.

Results

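The genes described here encode the B cell receptor's proximal signaling machinery, the proteins that act first when antigen binds membrane immunoglobulin. They are Cd79a, Cd79b, Syk, Lyn, Blk, Btk, Blnk, Plcg2, Ptprc and Ptpn6, chosen by symbol and not by a measured value. All 10 were found among the 22675 genes counted in both deposited tables, and all 10 passed the filter on low counts. Their expression was compared over 4 groups of 4 RNA-seq libraries, each made by Smart-seq2 from about 1000 sorted mouse spleen cells.

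The cells were B220-positive, NIP-binding and CD38-positive, and lacked surface IgD, CD138, GL7 and FAS, a memory-like phenotype. They were taken 7 days after C57BL/6 mice were given the antigen NP-OVA with LPS and alum. Every mouse carried AID-Cre, the B1-8hi heavy chain, which binds the NP and NIP haptens, and GFP, so these features were shared by all groups. KOTP and KOTN were tdTomato-positive and tdTomato-negative cells from mice that had 2 copies of a reporter allele of Zfp318, named ZSDAT (Zfp318ZSDAT/ZSDAT). HetTP and HetTN were the corresponding cells from mice with 1 copy and 1 wild-type copy (Zfp318ZSDAT/+). Mouse ages, how tdTomato depends on Cre, and whether libraries came from separate mice are not given in the sources used here. B220 is a form of the Ptprc product, so the gate itself selected for 1 of the 10 proteins in every group.

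The receptor is a membrane immunoglobulin held with a pair of signaling chains, Cd79a and Cd79b. Antigen binding lets Src family kinases, chiefly Lyn and in mice also Blk, phosphorylate paired tyrosines in the tails of these chains, where the kinase Syk then docks. Syk phosphorylates the scaffold Blnk, on which Btk activates Plcg2, and Plcg2 releases the second messengers that open calcium stores and activate protein kinase C. Ptprc (CD45) removes the inhibitory phosphate from Src kinases, and Ptpn6 (SHP-1) takes phosphate off the activated proteins.

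The coding stretch for the paired tyrosines, the immunoreceptor tyrosine-based activation motif, is shown for both chains because Cd79a and Cd79b were the most abundant of the 10 genes and the results turn on them. The bases are from GENCODE M21 transcripts on GRCm38, and capitals mark the codons for each tyrosine and for the leucine or isoleucine that follows it.
Cd79a: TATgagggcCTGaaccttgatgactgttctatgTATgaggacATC
Cd79b: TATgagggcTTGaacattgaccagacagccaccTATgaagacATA
The Cd79a stretch is coding bases 544 to 588 of 660, on the plus strand of chromosome 7 between 24901296 and 24901469, and crosses from exon 4 into exon 5. The Cd79b stretch is coding bases 763 to 807 of 864, on the minus strand of chromosome 11 between 106311867 and 106312012, and crosses from exon 5 into exon 6. In a shorter annotated Cd79b transcript the same stretch is coding bases 583 to 627 of 684. Both stretches are 45 bases long with 7 codons between the leucine codon and the second tyrosine codon, and 31 of 45 bases (68.9%) are identical.

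The library totals ranged from 7748787 to 15742445 counts, and a member gene had between 680 and 78478 counts in a library. Zfp318, the targeted gene, had 0.87 to 2.75 CPM in KOTP and 0.45 to 5.42 CPM in KOTN, against 92.7 to 133 CPM in HetTP and 78.8 to 152 CPM in HetTN, so that every library matched its genotype label. Each genotype has its own deposited table, so an effect of genotype and an effect of the table it was counted or prepared with cannot be told apart. The Het libraries varied more: the biological coefficient of variation was 0.211 over the KO and 0.98 over the Het libraries. Cells of another type in the sort would also enter these sums. The summed CPM of 12 T cell markers was 37.9 to 50.3 in KOTP and 29.9 to 39.5 in KOTN, against 226 to 750 in HetTP and 302 to 600 in HetTN. For 16 myeloid markers it was 88.2 to 113 in KOTP and 114 to 162 in KOTN, against 156 to 864 in HetTP and 511 to 1401 in HetTN, and for 7 plasma cell markers 111 to 153 and 139 to 265, against 298 to 467 and 388 to 939. Cd4 was at 0 in all 4 groups, Cd3e and Cd8a were at 0 in both KO groups, and Itgam was at 0 in both Het groups. Members of a list did not all run alike. In HetTP and HetTN the T cell marker with the highest median was Trac (285 and 311 CPM), while Cd3e had medians of 0.0 and 1.38 CPM. Of the myeloid markers, Adgre1 was higher in KO, at 29.7 to 52.3 CPM in KOTP and 32.4 to 44.6 CPM in KOTN. It had 0.0 to 24.5 CPM in HetTP and 0.0 to 21.6 CPM in HetTN. Dendritic cell markers (8 genes) summed to 78.7 to 109 and 81.9 to 102 CPM in KOTP and KOTN, against 64.9 to 130 and 63.1 to 93.9 CPM in HetTP and HetTN. The part of these other cells in the results below was not tested.

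Levels below are CPM, counts scaled to the library total. Fold changes and tests are from edgeR's quasi-likelihood test on the raw counts of all 16 libraries after TMM scaling, with p-values adjusted over 10687 genes and called under 0.05. The TMM factors were 0.908 to 0.971 in KO and 0.963 to 1.122 in Het libraries, so a fitted KO against Het fold change is larger than the ratio of the CPM means. In bulk libraries, fewer cells of a type and less RNA per cell cannot be told apart.

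**Figure D1:**
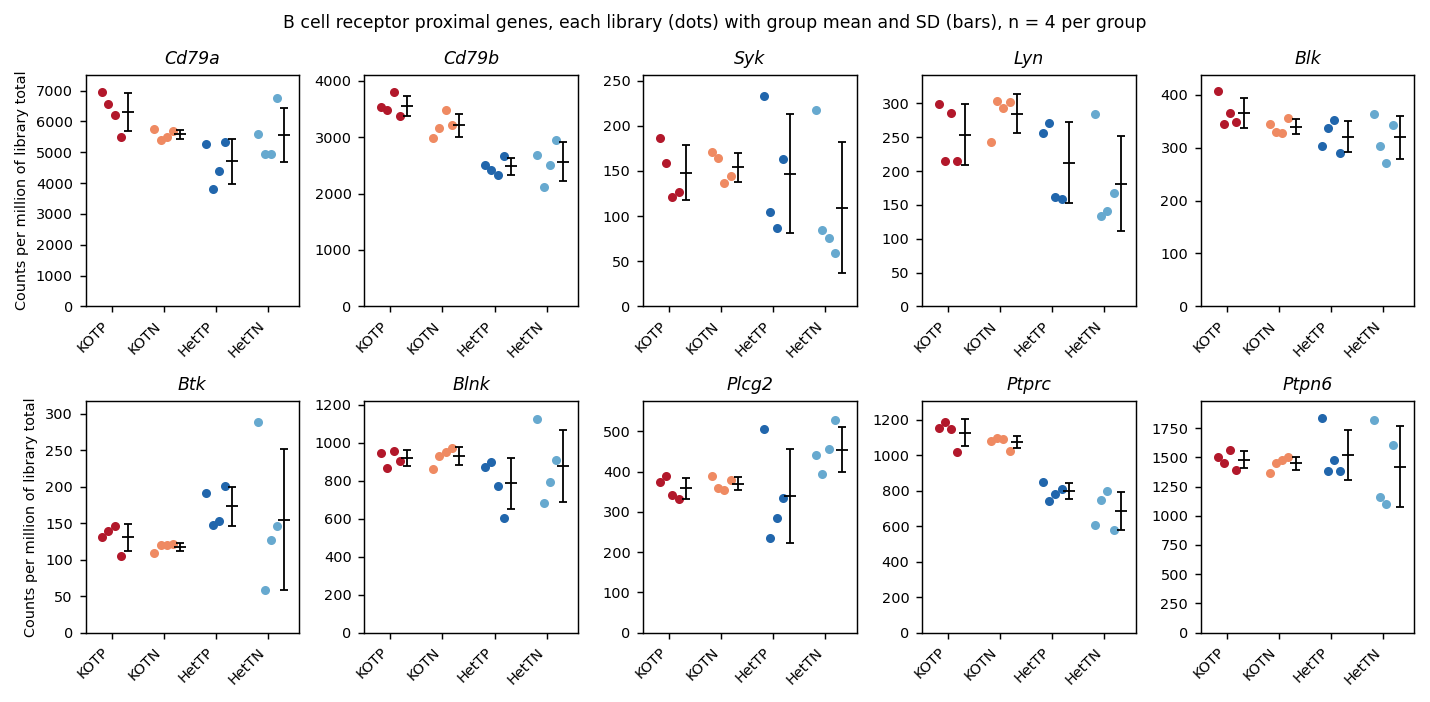
CPM, counts scaled to the library total (y axis, linear, from 0) of the 10 genes in each library (dots), grouped as KOTP, KOTN, HetTP and HetTN, with the mean and SD of 4 libraries as bars. The KO dots of Cd79b and Ptprc lie above the Het dots within each sort, while Syk, Lyn, Btk and Plcg2 spread widely in a Het group.

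Per kilobase of coding sequence, the order of the 10 genes differed little between the 4 groups, with the signaling chains far above the enzymes. Cd79a averaged 9548 CPM per kb in KOTP, 8462 in KOTN, 7120 in HetTP and 8426 in HetTN, which placed it between 21st and 26th of 20062 genes ranked. Cd79b followed at 4110, 3724, 2874 and 2969 CPM per kb in the same order. These values use 864 coding bases, and the shorter transcript of 684 would raise them. Ptpn6 came next, at 747 to 799 CPM per kb, and then Blnk, at 574 to 677 CPM per kb. The libraries of Ptpn6 and Blnk overlapped in HetTN but in no other group. Ptprc, Blk and Lyn lay between 118 and 290 CPM per kb. Plcg2, Syk and Btk were the lowest 3 genes in KOTP, KOTN and HetTP, between 59.5 and 97.6 CPM per kb, with overlapping neighbours in KOTP and HetTP. In HetTN the Plcg2 mean (120) lay just above that of Lyn (118), with overlap.

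In tdTomato-positive cells, 5 of the 10 genes were higher in homozygous than in heterozygous mice and none passed as lower. Over all 10687 genes, 5.06% were called higher, 5.22% lower and 10.3% in either direction. The median log2 fold change of the 10 genes was 0.43, beside -0.03 over all genes. These are abundant genes, and calls are more frequent at high counts: of 1095 genes at or above the mean level of the least abundant of the 10, 25.7% were called higher, with a median of 0.17. The 2 signaling chains and the activating phosphatase Ptprc moved most, by 0.65 to 0.74 on the log2 scale.

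Cd79b (GRCm38 chromosome 11, 106311341 to 106314762, minus strand), the Igβ chain, had 3535, 3482, 3798 and 3387 CPM in the 4 KOTP libraries, against 2501, 2420, 2337 and 2675 CPM in HetTP. Every KOTP library lay above every HetTP library, and the fitted log2 fold change was 0.74 (SE 0.11, adjusted p = 1.5e-04), a 1.67-fold difference. Cd79a (chromosome 7, 24897381 to 24902197, plus strand), the Igα chain, had 6939, 6565, 6224 and 5478 CPM in KOTP, against 5279, 3817, 4383 and 5319 CPM in HetTP. The groups again did not overlap, although the lowest KOTP and the highest HetTP library lay close together, and the log2 fold change was 0.65 (SE 0.13, adjusted p = 0.00244). Groups that did not overlap with the KOTP libraries on top were found for 7.06% of all genes, and for 3 of these 10.

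Ptprc (GRCm38 chromosome 1, 138062861 to 138175708, minus strand), the phosphatase that opens Src kinases for activity, was the third gene whose KOTP libraries all lay above HetTP. It had 1155, 1185, 1147 and 1018 CPM in KOTP, against 851, 744, 779 and 810 CPM in HetTP, and its log2 fold change was 0.73 (SE 0.12, adjusted p = 5.3e-04). Ptpn6 (chromosome 6, 124720707 to 124738714, minus strand), the dampening phosphatase, did not pass. It averaged 1479 ± 72.5 CPM in KOTP and 1520 ± 213 CPM in HetTP (SD, n = 4 each), with overlapping libraries and a log2 fold change of 0.19 (95% interval -0.09 to 0.46, adjusted p = 0.501). In the fit of the 8 tdTomato-positive libraries alone it passed once HetTP replicate 1, its highest, was left out (0.29, adjusted p = 0.0318). Of 8 such fits that each left out 1 library, this was the only call. Of the Ptpn6 coding sequence, 195 of 1903 bases are overlapped by an antisense gene that the tables do not hold, and whether counting used strand is not stated.

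Among the kinases only Blk passed in tdTomato-positive cells. Blk (GRCm38 chromosome 14, 63372836 to 63417037, minus strand), a Src family kinase largely restricted to B cells, had 407, 344, 365 and 349 CPM in KOTP, against 304, 338, 353 and 289 CPM in HetTP, so the groups overlapped. Its log2 fold change was 0.41 (SE 0.11, adjusted p = 0.0252). Lyn (chromosome 4, 3678115 to 3813122, plus strand), the main Src kinase of the receptor, had 299, 214, 286 and 215 CPM in KOTP, against 256, 271, 161 and 159 CPM in HetTP, with a similar but less certain difference of 0.48 (SE 0.21, adjusted p = 0.173). The HetTP libraries of Lyn fell into a high pair, within the KOTP range, and a low pair, below every KOTP library. Syk (chromosome 13, 52583173 to 52648792, plus strand), the kinase that binds the phosphorylated tails, averaged 148 ± 30.6 CPM in KOTP and 147 ± 65.8 CPM in HetTP (SD, n = 4 each), with a log2 fold change of 0.24 (95% interval -0.42 to 0.91, adjusted p = 0.78).

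In the complex around the scaffold, Blnk passed and its partners did not. Blnk (GRCm38 chromosome 19, 40928927 to 40994535, minus strand) had 945, 865, 958 and 905 CPM in KOTP, against 870, 900, 774 and 604 CPM in HetTP, with 1 HetTP library well below the rest. Its log2 fold change was 0.45 (SE 0.13, adjusted p = 0.0365). Plcg2 (chromosome 8, 117498291 to 117635142, plus strand), the phospholipase, had 373, 389, 342 and 333 CPM in KOTP, against 505, 234, 285 and 334 CPM in HetTP, and its log2 fold change of 0.31 (SE 0.18, adjusted p = 0.349) did not pass. HetTP replicate 1 was the highest for Plcg2, and without it the log2 fold change was 0.56 (adjusted p = 0.016). That was the only call in 16 fits that each left out 1 library, where the value ran from 0.16 to 0.56.

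Btk (GRCm38 chromosome X, 134542336 to 134583570, minus strand), the Tec family kinase whose loss impairs B cell development, was the 1 gene of the 10 with a negative fold change in tdTomato-positive cells. It had 131, 139, 147 and 105 CPM in KOTP, against 191, 147, 153 and 201 CPM in HetTP, with the groups just apart and KOTP below. Separation of this kind, with KOTP below, was found for 13.8% of all genes. After TMM scaling the log2 fold change was -0.18 (95% interval -0.77 to 0.40, adjusted p = 0.825), and Btk did not pass.

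The calls for Blk and Blnk were less stable than the other 3. With library totals alone and no TMM factor, the median of all genes shifted to -0.25, and Cd79a (log2 fold change 0.42, adjusted p = 0.0264), Cd79b (0.51, adjusted p = 0.00177) and Ptprc (0.50, adjusted p = 0.00469) passed. Blk (0.19, adjusted p = 0.365) and Blnk (0.22, adjusted p = 0.397) did not. Blk lost its call without KOTP replicate 1, 3 or 4 or HetTP replicate 1 or 4 (adjusted p 0.0513 to 0.0913). Blnk lost it without any single KOTP library, without KOTN replicate 2, 3 or 4, or without HetTP replicate 3 or 4 (adjusted p 0.052 to 0.115). When 1 library was left out of the 8 compared, Blk and Blnk each passed in 3 of 8 fits, and Cd79a, Cd79b and Ptprc in all 8.

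**Figure D2:**
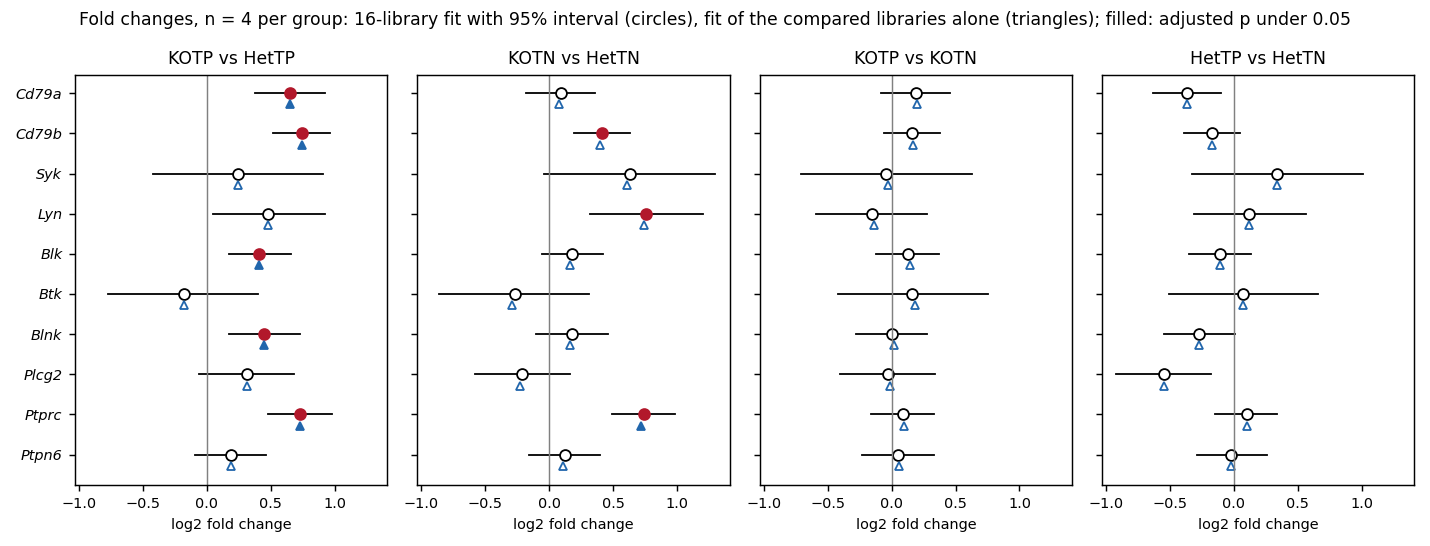
Log2 fold change (x axis) of the 10 genes in 4 comparisons, with KO over Het in the left pair and tdTomato-positive over tdTomato-negative in the right pair. Circles with 95% intervals are the fit of 16 libraries, triangles the fit of the compared libraries alone, and filled symbols mark an adjusted p under 0.05; 5 genes are filled circles in KOTP vs HetTP, 3 in KOTN vs HetTN and none within a genotype.

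In tdTomato-negative cells, 3 of the 10 genes were higher in homozygous than in heterozygous mice, Ptprc, Lyn and Cd79b, and none passed as lower. Over all genes, 5.61% were called higher, 4.88% lower and 10.5% in either direction, and among the 1095 genes of comparable abundance 19.5% were called higher. The median log2 fold change of the 10 genes was 0.18, beside 0.00 over all genes. Ptprc and Cd79b thus passed in both sorts, while Cd79a, Blk and Blnk passed in tdTomato-positive and Lyn in tdTomato-negative cells; whether these differ between the sorts was tested by the interaction given further on.

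Ptprc had 1079, 1098, 1090 and 1025 CPM in KOTN, against 609, 747, 798 and 577 CPM in HetTN. All KOTN libraries lay above all HetTN libraries, by 0.74 on the log2 scale (SE 0.12, adjusted p = 6.1e-04), close in size to that in the tdTomato-positive cells. Cd79b had 2988, 3171, 3485 and 3224 CPM in KOTN, against 2692, 2121, 2500 and 2946 CPM in HetTN, also without overlap but with a narrow gap, and a log2 difference of 0.41 (SE 0.11, adjusted p = 0.0175). Libraries separated in this direction for 10.4% of all genes. Cd79a had 5742, 5411, 5508 and 5678 CPM in KOTN, against 5605, 4937, 4937 and 6766 CPM in HetTN, and its log2 fold change of 0.09 (95% interval -0.18 to 0.36, adjusted p = 0.753) did not pass.

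Lyn had the largest fitted difference of the 10 in tdTomato-negative cells, with the widest spread among the 3 called. It had 244, 303, 293 and 301 CPM in KOTN, against 284, 134, 141 and 167 CPM in HetTN. Only HetTN replicate 1 reached the KOTN range, and the log2 fold change was 0.76 (SE 0.21, adjusted p = 0.0257). The same library was also the highest of HetTN for Syk, Blk, Btk, Blnk and Ptpn6. Syk had 171, 164, 137 and 144 CPM in KOTN, against 217, 84.9, 76.0 and 59.2 CPM in HetTN, and its log2 fold change of 0.63 (SE 0.32, adjusted p = 0.254) did not pass. Without HetTN replicate 1 the Syk log2 fold change was 1.12 (adjusted p = 0.0138). That was the only call for Syk in 16 fits that each left out 1 library (0.44 to 1.12).

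The remaining 5 genes did not pass in tdTomato-negative cells. Blk averaged 340 ± 13.6 CPM in KOTN and 319.8 ± 40.9 CPM in HetTN, Blnk 929 ± 46.0 and 877 ± 189 CPM, and Ptpn6 1448 ± 59.0 and 1422 ± 348 CPM (SD, n = 4 each). Their log2 fold changes lay between 0.12 and 0.18. Plcg2 had 390.1, 358, 355 and 378 CPM in KOTN, against 442, 395, 455 and 528 CPM in HetTN. It was the 1 gene whose KOTN libraries all lay below HetTN, as 8.5% of all genes did, with a log2 difference of -0.21 (SE 0.18, adjusted p = 0.541). Btk spread from 58.7 to 288 CPM over HetTN and covered the KOTN range of 109.7 to 122 CPM.

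In the fit of the 8 tdTomato-negative libraries alone, which takes its spread from these groups, Ptprc passed (adjusted p = 0.0144), and Cd79b (adjusted p = 0.0944) and Lyn (adjusted p = 0.058) did not. That fit called 7.3% of the genes it tested. In the fit of the 8 tdTomato-positive libraries alone, the 5 genes called with 16 libraries passed again (adjusted p between 2.4e-04 and 0.0415), beside 11.7% of all genes. In the 16-library fit the Cd79b call in tdTomato-negative cells was lost without KOTN replicate 3 (adjusted p = 0.0665). The Lyn call was lost without KOTN replicate 2, 3 or 4 or HetTN replicate 2 or 3 (adjusted p 0.0655 to 0.0736). Ptprc was called in all 16 fits that left out 1 of the 16 libraries, in either sort. With the 8 tdTomato-negative libraries alone its call was lost without KOTN replicate 2 (adjusted p = 0.0613) or 3 (adjusted p = 0.0596).

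The comparison of tdTomato-positive with tdTomato-negative cells asked how reporter-positive cells differ within a genotype and stays within 1 deposited table. In homozygous mice, none of the 10 genes passed, and 2 genes of all 10687 (0.0187%) did. None of the 10 reached an unadjusted p of 0.05 either, with log2 fold changes between -0.15 for Lyn and 0.19 for Cd79a. KO libraries were the less variable, and in a fit of these 8 libraries alone 2.37% of all genes passed but none of the 10. Cd79a came nearest there (log2 fold change 0.20, SE 0.06, adjusted p = 0.101). It passed without KOTP replicate 4 (0.25, adjusted p = 0.0143) or without KOTN replicate 1 (0.22, adjusted p = 0.0414). With limma voom and sample weights, which called 3.16% of genes, Cd79a (0.21, adjusted p = 0.00949) and Cd79b (0.16, adjusted p = 0.0402) passed. DESeq2, which called 0.104% of genes, called neither.

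In heterozygous mice, none of the 10 genes passed between tdTomato-positive and tdTomato-negative cells, where 1.07% of all genes did. At an unadjusted p of 0.05 there were 2, Plcg2 and Cd79a, both lower in tdTomato-positive cells. Plcg2 had 505, 234, 285 and 334 CPM in HetTP, against 442, 395, 455 and 528 CPM in HetTN, and the fitted difference was -0.55 (SE 0.18, adjusted p = 0.109). HetTP replicate 1 was the exception, and without it the Plcg2 value was -0.80 (adjusted p = 0.0153). No other of the 16 fits that left out 1 library called Plcg2, and its values ran from -0.80 to -0.40. Cd79a averaged 4700 ± 730.2 CPM in HetTP and 5561 ± 863 CPM in HetTN (SD, n = 4 each), with a log2 difference of -0.37 (SE 0.13, adjusted p = 0.138). DESeq2, which called 6.72% of all genes here, called both (adjusted p = 0.04 for Plcg2 and 0.0495 for Cd79a). The fit of the 8 Het libraries alone called no gene at all (0.0%), and voom, which called 0.0374%, called neither.

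The difference of the tdTomato effect between the genotypes cancels any constant offset between the tables. None of the 10 genes passed this interaction test, which called 0.122% of all genes, and 3 had an unadjusted p under 0.05. Cd79a had the largest value, 0.56 (SE 0.18, adjusted p = 0.263), since its fold change was 0.19 in homozygous and -0.37 in heterozygous cells. Plcg2 had 0.52 (SE 0.25, adjusted p = 0.531) and Cd79b 0.33 (SE 0.15, adjusted p = 0.492). Ptprc had -0.01 (95% interval -0.36 to 0.34). No gene of the 10 was therefore shown to respond to reporter status differently in the genotypes, or to genotype differently in the sorts.

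The ratio of the signaling chains does not depend on library scaling, but its size depends on the coding length taken for Cd79b, here 864 bases. With the shorter transcript of 684 bases it would be lower in every library alike. The ratio of Cd79a to Cd79b, both per kilobase, was 2.57, 2.47, 2.15 and 2.12 in KOTP and 2.52, 2.23, 2.07 and 2.31 in KOTN, against 2.76, 2.07, 2.45 and 2.60 in HetTP and 2.73, 3.05, 2.59 and 3.01 in HetTN. All 4 KOTN libraries lay below all 4 HetTN libraries, and KOTP and HetTP overlapped. The means were 2.33 ± 0.23 in KOTP and 2.28 ± 0.19 in KOTN, against 2.47 ± 0.30 in HetTP and 2.84 ± 0.22 in HetTN (SD, n = 4 each). The ratio of Lyn to Blk averaged 0.67 ± 0.08 in KOTP and 0.82 ± 0.09 in KOTN, against 0.65 ± 0.18 in HetTP and 0.54 ± 0.15 in HetTN, and KOTN overlapped HetTN through HetTN replicate 1.

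**Figure D3:**
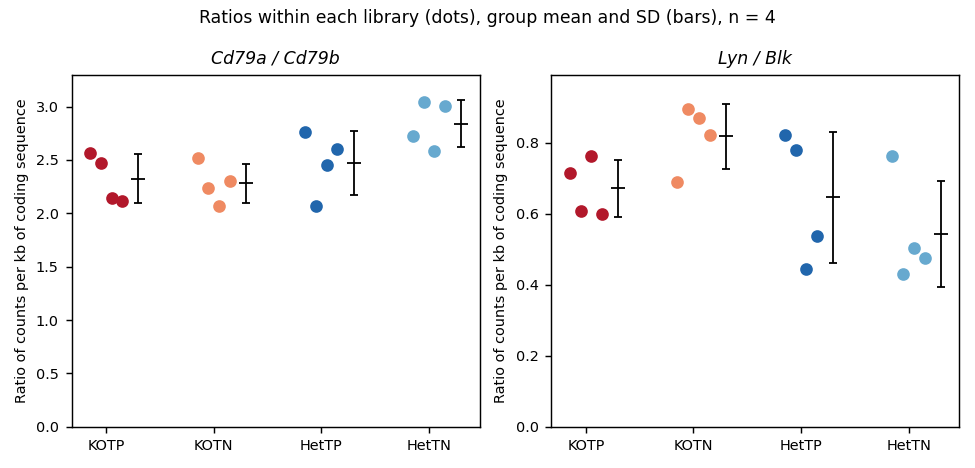
Ratio of counts per kilobase of coding sequence (y axis, linear, from 0) within each library (dots) for Cd79a over Cd79b and for Lyn over Blk, with group mean and SD of 4 libraries as bars. The Cd79a to Cd79b ratio is 2.07 to 2.52 in KOTN, below the 2.59 to 3.05 of HetTN.

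The summed CPM of the 10 genes, dominated by the chains, was 13310 to 15478 in KOTP and 13297 to 13738 in KOTN, against 10363 to 12823 in HetTP and 10621 to 14048 in HetTN. KOTP lay above HetTP in every library, and KOTN lay within the range of HetTN. Other B cell genes did not all run the same way. Of 9 B cell markers, 5 were called higher and 2 lower in KOTP than in HetTP, and 4 higher and 2 lower in KOTN than in HetTN. Cd74, the invariant chain, had 11073 to 15183 CPM in KOTP and 13002 to 14021 CPM in KOTN, against 20897 to 22717 CPM in HetTP and 21663 to 28826 CPM in HetTN, and Pax5, a B lineage transcription factor, was also lower in KO cells. The summed B marker level, in which Cd74 weighs most, was 24434 to 30992 CPM in KOTP and 26934 to 28478 CPM in KOTN, against 31336 to 34521 CPM in HetTP and 32183 to 42244 CPM in HetTN.

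Over the 16 libraries, the log2 CPM of Cd79a and Cd79b had a Pearson correlation of 0.84, Cd79b and Ptprc of 0.82, and Cd79a and Btk of -0.02. The gene outside the 10 most like Cd79b was H2-Aa, an MHC class II chain, at 0.984, followed by H2-DMb2 at 0.975. For Ptprc they were Atp10d at 0.971 and the chemokine receptor Ccr6 at 0.969, and for Lyn they were Cybb and Tpm4, both at 0.931. For Cd79a they were Snap29 at 0.931 and Coro1a at 0.927. For the other 6 genes the closest patterns had correlations of 0.879 to 0.911. These values describe 16 points that share genotype, table and scaling, out of 6997 genes compared.

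Beyond the 10 genes, 102 further genes of receptor signaling were read in 5 lists, and 91 of them were tested. Of these, 12 were higher and 7 lower in KOTP than in HetTP (20.9% called), and 21 were higher and 8 lower in KOTN than in HetTN (31.9%), beside 10.3% and 10.5% of all genes. Their median log2 fold change was 0.02 in both comparisons. The wider pathway thus held calls in both directions. No call among the 10 was lower, and of all genes 5.22% were called lower in KOTP and 4.88% in KOTN. With 10 genes, no lower call is near those shares.

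The coreceptor complex lowers the antigen dose needed for signaling. Of its 5 tested genes, Cd81, a tetraspanin, averaged 520.0 ± 37.0 CPM in KOTP and 347 ± 31.9 CPM in HetTP, and 802 ± 63.9 CPM in KOTN and 413 ± 51.6 CPM in HetTN (SD, n = 4 each). Its log2 fold changes were 0.81 (adjusted p = 1.7e-04) and 1.04 (adjusted p = 1.9e-05). Ifitm3, an interferon-induced membrane protein, was lower in KOTN, at 2.46 ± 1.51 CPM against 25.1 ± 18.6 CPM in HetTN (-3.30, adjusted p = 0.0201).

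Among 19 tested adaptors and scaffolds, 2 were higher and 1 lower in KOTP, and 4 higher and 1 lower in KOTN. Lat2, a membrane adaptor, rose in both, by log2 fold changes of 1.38 (adjusted p = 3.7e-05) and 1.08 (adjusted p = 5.3e-04). Dok3, an inhibitory adaptor, fell in both, to 313 ± 42.5 CPM in KOTP, against 565 ± 81.6 CPM in HetTP, and to 304 ± 29.2 CPM in KOTN, against 552 ± 66.9 CPM in HetTN. Its log2 fold changes were -0.63 (adjusted p = 0.00328) and -0.76 (adjusted p = 8.5e-04). Grb2 rose in both, with a log2 fold change of 1.02 in KOTP (adjusted p = 0.00244), and Bank1 (0.68) and Dapp1 (1.21) rose in KOTN.

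In the branch of PI3 kinase, calcium, protein kinase C and Ras genes (36 tested), 2 were higher and 4 lower in KOTP, and 5 higher and 3 lower in KOTN. Nfatc1, a transcription factor activated by calcium, showed the largest called falls of the branch, to 66.3 ± 24.3 CPM in KOTP, against 371 ± 62.6 CPM in HetTP, and to 70.0 ± 14.1 CPM in KOTN, against 294 ± 61.7 CPM in HetTN. The log2 fold changes were -2.26 (adjusted p = 6.8e-06) and -1.97 (adjusted p = 2.7e-05). Rac2, a GTPase of blood cells, rose by 0.58 in KOTP (adjusted p = 0.00431) and 0.49 in KOTN (adjusted p = 0.0167), where the 8 libraries alone did not call it (adjusted p = 0.0961). Rac1 fell in KOTP (-1.19, adjusted p = 0.00521), a call that voom did not make (adjusted p = 0.152), and Hras fell (-2.04, adjusted p = 0.0117). Map2k1 (0.82) and Malt1 (1.32) rose in KOTN.

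Of 24 tested genes in the list of inhibitory receptors and negative regulators, 6 were higher and 1 lower in KOTP, and 8 higher and 1 lower in KOTN. The list also held Fcrla and Fcrl1, which are not inhibitory receptors, so these are not counts of inhibitors alone. Fcgr2b, the inhibitory IgG receptor, averaged 412 ± 26.4 CPM in KOTP and 183 ± 42.8 CPM in HetTP, and 601 ± 64.2 CPM in KOTN and 196 ± 85.9 CPM in HetTN (log2 fold changes 1.40, adjusted p = 0.00189, and 1.70, adjusted p = 5.5e-04). Cd72, a receptor that recruits Ptpn6, rose by 0.85 (adjusted p = 1.8e-04) and 1.01 (adjusted p = 4.2e-05). Fcrla rose in both, by 1.00 and 0.76, Fcrl1 rose in KOTP by 0.83 and Fcrl5 in KOTN by 1.73. Sla2 had 91 counts over KOTP and none over HetTP, and Cd5 had 179 counts over KOTN and none over HetTN. Against a floor of 3 counts over the group these were at least 39.9-fold and 80.5-fold higher (adjusted p = 0.046 and 0.00705). The floor takes no account of the spread between libraries. The absence was not shared by the other Het group, where HetTN had 47 counts of Sla2 and HetTP had 215 counts of Cd5.

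Among 7 tested kinases of the Src and Tec families outside the 10, Lck fell in both, to 41.8 ± 5.78 CPM in KOTP, against 117 ± 25.1 CPM in HetTP, and to 30.7 ± 4.38 CPM in KOTN, against 83.8 ± 24.8 CPM in HetTN (adjusted p = 0.0011 and 8.5e-04). Lck is also 1 of the T cell markers, so their sums are not independent of it. At 33.5 to 46.1 CPM in KOTP and 26.1 to 34.8 CPM in KOTN it made up most of those sums. Whether T cells had a part in the Lck values was not tested. Fgr (1.48, adjusted p = 0.031) rose and Fyn (-1.34, adjusted p = 0.0243) fell in KOTN. The Fgr call was not made by the 8 libraries alone (adjusted p = 0.0525). Set beside them, the receptor's own Src kinases Lyn and Blk differed by 0.18 to 0.76 in the same comparisons.

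Within a genotype the wider lists showed 1 call in the 16-library fit, Cd5, which averaged 4.36 ± 3.21 CPM in HetTP and had no count in HetTN (adjusted p = 0.0415, voom adjusted p = 0.657). Cd5 was 1.1% of the 91 genes tested, close to the 1.07% of all genes called between the Het groups. The fit of the 8 KO libraries alone called 5 genes of the wider lists, beside 2.37% of all genes it tested. Among them, Cd81 (-0.59, adjusted p = 8.6e-06), Fcgr2b (-0.51, adjusted p = 1.8e-04) and Fcrl5 (-0.45, adjusted p = 0.00175) were lower in KOTP. Dgka, a kinase that removes diacylglycerol, was higher (0.61, adjusted p = 1.2e-04).

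**Figure D4:**
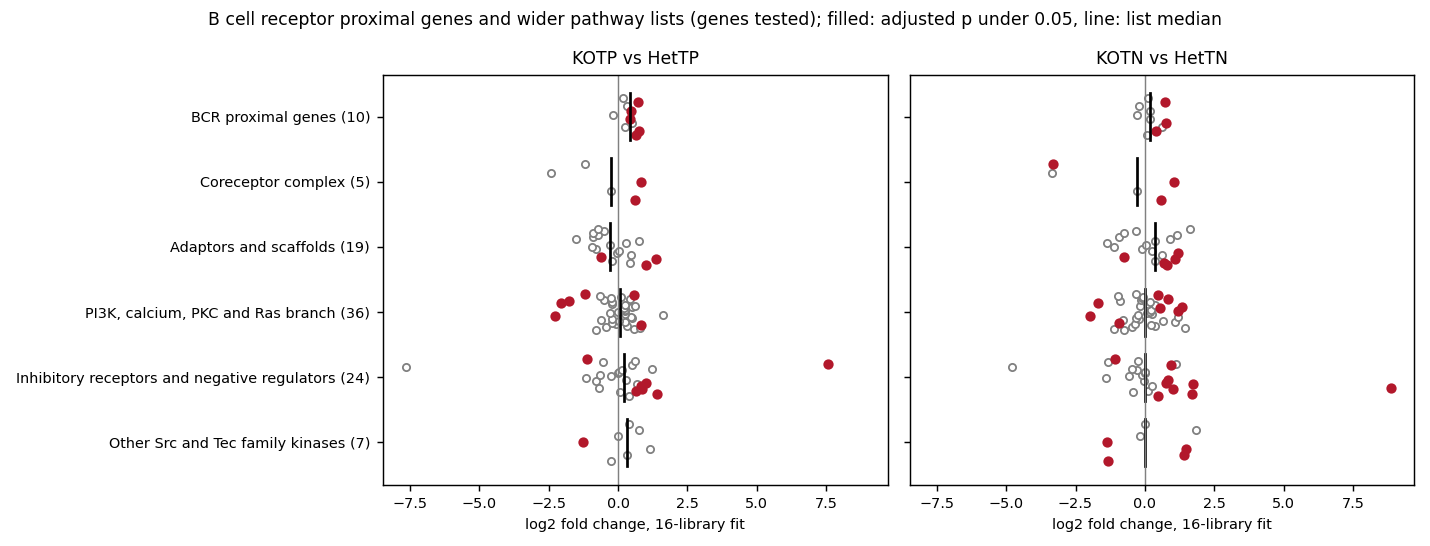
Log2 fold change from the 16-library fit (x axis) of each tested gene of the 10 and of 5 wider lists (rows, number tested in brackets), KO over Het in each sort; filled dots have an adjusted p under 0.05 and black lines are list medians. The 10 proximal genes have filled dots on the right only, and every wider list has filled dots on the left in at least 1 sort. Of all genes, 5.22% (KOTP vs HetTP) and 4.88% (KOTN vs HetTN) were called lower. The dots at the far right are Sla2 and Cd5, which had no count in the Het group compared. Their position depends on the prior count.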

How the data were processed

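The submitters' processing notes name Trim Galore, STAR 2.2.0, featureCounts and mm10, with no strand, multi-mapping or read-pair settings. For each genotype the authors deposited a table of raw counts of reads in coding sequence, as named in the headers. The deposited RPM signal columns were scaled by the authors to mapped reads, per the file headers. Counts per mapped read in that divisor were 0.369 to 0.419 in the KO and 1.35 to 1.5 in the Het table, so the tables' raw counts may differ in how they were made. The authors' deposited log2 ratios and signal columns were not used in a test.

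The 22680 entries per table were joined by symbol, leaving out 4 entries of 2 duplicated names and 1 unpartnered name, which left 22675 genes, and 88.7% matched GENCODE M21. Genes were filtered with filterByExpr, and 10687 were tested with edgeR 4.0.16 (R 4.3.3; robust quasi-likelihood, TMM, group means of 16 libraries, 12 residual degrees of freedom, Benjamini-Hochberg). The script was tested on simulated data. CPM values are deposited counts scaled to the library total, and SDs are over 4 libraries. P-values measure the spread between libraries, which may be technical. The Dixon ratio was used to find libraries that stand apart. Counting floors cover counting error only, since reads carried no molecular identifiers.

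Replicate numbers 1 to 4 recur in each group. The deviations of same-numbered libraries correlated by -0.029 to 0.087, and those of differently numbered libraries by -0.093 to 0.066. No pairing was used, although these values cannot show that the libraries came from separate mice. The 10 genes, the wider lists and the markers were chosen with earlier results of these data known. All 10 genes are named in every comparison, up to 4 called genes with the smallest p in each list and comparison, and for each of the 10 the 2 genes with the most alike pattern. A few genes these rules name are not reported here. A few others are named for their counts, chosen after their values were seen. Alternatives were RLE, upper quartile and no scaling beyond library totals, other filters, leaving out 278 immunoglobulin and mitochondrial genes, DESeq2 1.42.0, limma 3.58.1 voom, a replicate block, the compared libraries alone, and each library left out.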

Additional observations from a re-analysis of the deposited data

Results flagged for a closer look

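HetTN replicate 1 had 217.4 CPM of Syk, far above the other 3 HetTN libraries at 84.9, 76.0 and 59.2 CPM. Its gap to the next library was 0.838 of the group's range, above the 95% critical value of Dixon's ratio for 4 libraries. Of 52 groups of values examined this was the 1 that stood apart. Chance alone flags about 1 group in 20, so 1 in 52 is no more than chance gives. The library was also the highest of HetTN for Lyn, Blk, Btk, Blnk and Ptpn6. It had the highest T cell marker sum of HetTN, 600 CPM against 302 to 439 CPM in the other 3. Its sums of the other cell types were not the highest. They were 895 CPM for myeloid markers, against 1401 CPM in replicate 2, and 670 CPM for plasma cell markers, against 939 CPM in replicate 3. For dendritic cell markers it had 83.6 CPM, against 93.9 CPM in replicate 2. The part of other cells in the Syk value was not tested.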

How the results depend on the processing

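Of the fold changes called with 16 libraries, 219 of 272 values under the alternatives kept direction and call, 53 lost the call and none turned; of those not called, 1274 of 1338 kept both, 12 gained a call and 52 turned. In KOTP against HetTP, where 5 genes passed, 3 passed with library totals alone and 3 to 7 without 1 library. In KOTN against HetTN, where 3 passed, 1 passed with the compared libraries alone and 0 to 4 without 1 library. Between the KO groups voom called 2 and fits without 1 library 0 to 1, and between the Het groups DESeq2 called 2 and fits without 1 library 0 to 1, against 0. With the replicate block 4, 3, 0, 0 and 0 genes passed in the 5 comparisons, Blnk being lost in KOTP against HetTP (adjusted p = 0.0571), as with RLE scaling (0.0596); other counts stayed within 1.5 times.

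Values that turned were uncalled. With library totals alone these were Ptpn6 in KOTP against HetTP (-0.04), Blnk between the KO groups (-0.02), Blk (0.00 after rounding) and Ptpn6 (0.10) between the Het groups, and Btk (-0.02) and Ptpn6 (-0.07) in the interaction. With voom they were Blnk between the KO groups (-0.01), Ptpn6 between the Het groups (0.01) and Btk in the interaction (-0.13), and with upper quartile scaling Ptprc in the interaction (0.01). Without 1 of the 16 libraries the ranges that crossed 0 were, between the KO groups, -0.02 to 0.03 for Blnk, -0.07 to 0.01 for Plcg2 and -0.16 to 0.05 for Syk. Between the Het groups they were -0.20 to 0.49 for Btk, -0.02 to 0.36 for Lyn and -0.12 to 0.08 for Ptpn6. Btk in KOTN against HetTN ran from -0.55 to 0.14, and in the interaction Btk ran from -0.32 to 0.36, Ptpn6 from -0.03 to 0.17 and Ptprc from -0.10 to 0.08. With the compared libraries alone and 1 left out, the turned values were -0.01 (Blnk), 0.01, 0.01 and 0.02 (Plcg2) and 0.06, 0.03, 0.03 and 0.00 (Syk) between the KO groups, -0.02 (Lyn), -0.01, -0.19 and 0.00 (Btk) and 0.02, 0.02, 0.07 and 0.08 (Ptpn6) between the Het groups, and 0.13 (Btk) in KOTN against HetTN. The cause was not tested.

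Over all genes the split of KOTP against HetTP calls moved with scaling, from 541 higher and 558 lower to 350 and 915 with library totals alone and 693 and 469 with upper quartile scaling; in KOTN against HetTN upper quartile scaling gave 745 higher and 429 lower, beside 600 and 521. The lowest count of any of the 10 genes in a library was 680, and whether depth, the 4 libraries a group or the spread of the Het libraries limited the calls was not tested. Genotype cannot be told apart from the deposited table.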
